A study of Triticum aestivum with 21 samples.

Results

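The comparison described here set anthers holding immature pollen (IP) against anthers holding tetrads (T), the stage just before it in the series. The members are arrays: the 3 whose titles name immature pollen and the 3 whose titles name tetrads, 6 of the 21 arrays of the series. Whole anthers of wild-type bread wheat (Triticum aestivum cv. Chinese Spring) were collected at 7 stages from plants kept at 23 °C by day and 15 °C by night under a photoperiod of 14 h, with no treatment, and the stage of each floret was read from a squash of 1 of its anthers. The other stages were before meiosis (PM), leptotene up to pachytene (LP), diplotene up to the first anaphase (DA), the telophases (TT) and mature anthers (MAN). Anthers of several plants were pooled by stage, the RNA of each pool was amplified in 2 rounds and it was hybridised to 3 GeneChip Wheat Genome Arrays. The 3 arrays of a stage are therefore technical replicates of 1 pool, and every SD, SE and p below measures the spread between such arrays and not between plants. Genotype, cultivar and growth conditions were the same for both stages, so the arrays differ by stage and by whatever went with the preparation of the 2 pools, which cannot be told apart.

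At the end of meiosis the 4 haploid products of each pollen mother cell are held together in a callose wall as a tetrad. Enzymes of the tapetum, the cell layer that lines the anther locule, dissolve this wall, and the freed microspores build the outer pollen wall, enlarge, divide and fill with reserves. The tapetum feeds the microspores, supplies much of the wall material and breaks down before the pollen is shed. RNA from whole anthers holds the transcripts of the tapetum, the other wall layers and the epidermis together with those of the tetrads or the pollen. In such bulk samples fewer cells of a type and less RNA per cell cannot be told apart.

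Levels below are log2 of the intensity that the authors deposited for each probe set, and a difference of 1 is a 2-fold change. A probe set is a group of short probes designed for 1 transcript. Of 61179 probe sets tested, 10573 (17.3%) were called between T and IP at an adjusted p under 0.05 in limma, a linear model whose errors are moderated across probe sets. Of these, 4898 (8.01%) were higher in IP and 5675 (9.28%) were lower. At least 2-fold changes numbered 2070 (3.38%), of which 1221 (2.0%) were upward and 849 (1.39%) downward, so most called changes were small. The rises reached much further than the falls. There were 384 rises and 149 falls of at least 4-fold, 181 rises and 28 falls of at least 8-fold, and 53 rises and 6 falls of at least 32-fold. At least 256-fold changes were seen in 6 probe sets, all of them rises. The methods' t-test on the same 6 arrays called 2944 probe sets (4.81%) after adjustment, 1534 (2.51%) higher and 1410 (2.30%) lower. Without regard to a test, all 3 IP arrays lay above all 3 T arrays for 12.1% of probe sets and below them for 18.5%.

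**Figure D1:**
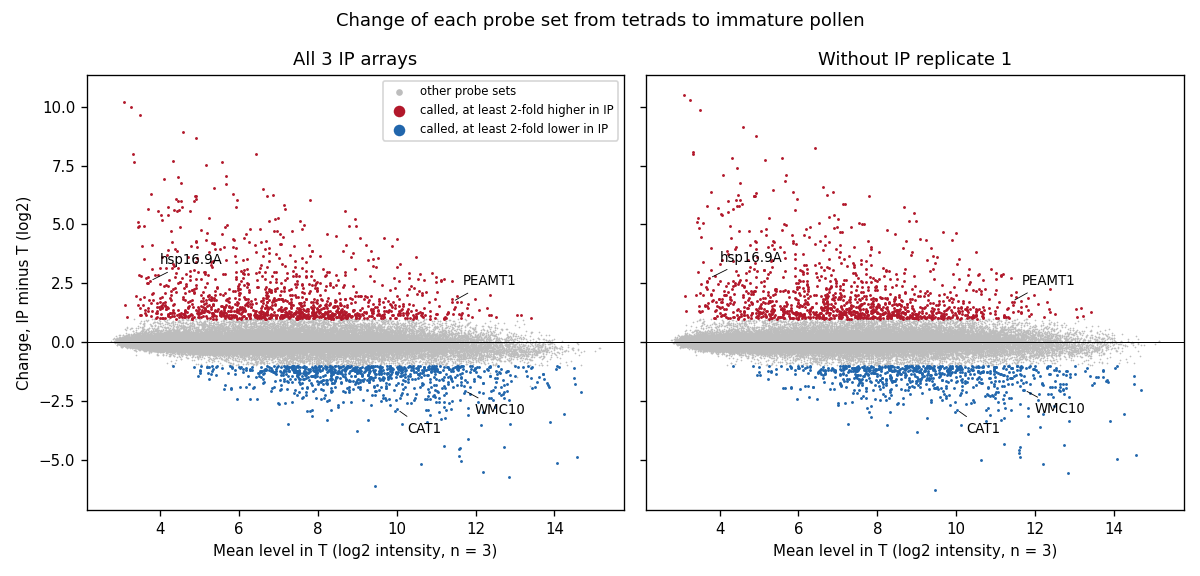
Change from T to IP (log2, vertical axis) of each of 61179 probe sets against its mean level in T (log2 intensity, horizontal axis), with all 3 IP arrays on the left and without IP replicate 1 on the right. Red and blue points are called and changed at least 2-fold, the rises (1221 on the left, 1215 on the right) extend beyond 10 on the log2 scale while the deepest falls are near -6, and 4 named genes are marked.

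One IP array stood apart from the others, and its values bear on every result for bright genes. Its bright signals were weak. Among probe sets that lay between 8 and 10 (log2) in PM, LP, DA and TT, IP replicate 1 was lower than the other IP arrays by a median difference of -0.185, between 12 and 13 by one of -0.418 and above 14 by one of -0.634. Below 6 it departed by no more than 0.02, and T replicate 1 departed by at most 0.05 in any range. IP replicate 3 departed upward at bright levels, by 0.211 between 8 and 10, 0.333 between 12 and 13 and 0.38 above 14. For IP replicate 2 these values were -0.031, 0.093 and 0.254. Both sets of values are taken against a mean that includes IP replicate 1. The highest level on IP replicate 1 was 14.32, against 15.13 to 15.19 on the other 5 arrays, and its hybridisation controls averaged 8.69, against 9.90 to 10.64 on the other 17 arrays before MAN. IP replicate 1 correlated with the other IP arrays at 0.989 across probe sets, which correlated at 0.995 with each other, and the T arrays correlated at 0.996 to 0.998. The median SD over probe sets was 0.164 in IP and 0.0963 in T.

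Without IP replicate 1, 8506 probe sets (13.9%) were called, 4706 (7.69%) higher and 3800 (6.21%) lower in IP. Changes of at least 2-fold numbered 1215 (1.99%) upward and 743 (1.21%) downward. The loss fell mainly on the falls. Of the 4898 rises 885 were not called the same way without that array, and of the 5675 falls 2096 were not. Among the large changes the array mattered little: all 849 falls and all but 11 of the 1221 rises of at least 2-fold were still called, and no probe set was called in opposite directions by both fits. With all arrays, 213 of the 413 probe sets between 13 and 14 were called lower in IP and 1 was called higher, and without IP replicate 1 these numbers were 117 and 16. The median change of these bright probe sets was -0.38 with all arrays and -0.22 without it, while the median over all probe sets was -0.04 in both cases.

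**Figure D2:**
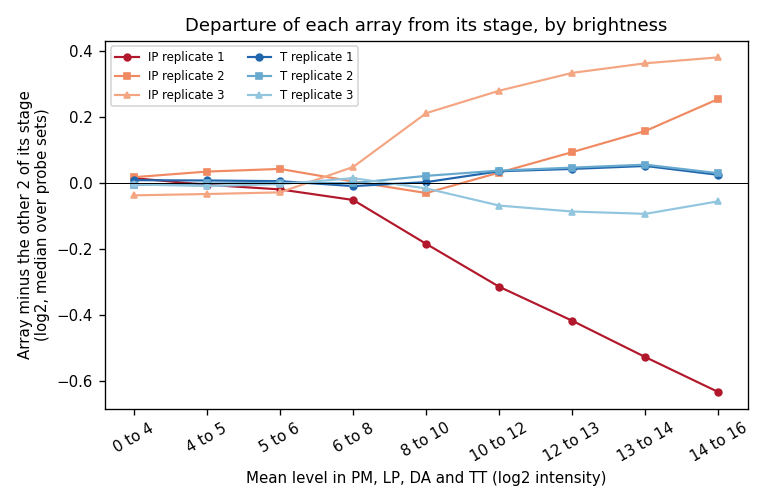
Median difference (log2) between each array and the other arrays of its stage, in ranges of the mean level in PM, LP, DA and TT (log2 intensity). IP replicate 1 falls away from the other IP arrays as the level rises, to -0.634 above 14. IP replicate 3 departs upward, to 0.38 above 14, while each T array stays within 0.1 of the other T arrays.

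The largest rises were in probe sets to which the annotation used here gives no readable gene name. Ta.3542.1.S1_at had the largest rise of those above 5, the level taken as expressed, in both stages. It measured 6.30, 6.51 and 6.45 on the T arrays and 13.96, 14.65 and 14.65 on the IP arrays, a rise of 8.0 ± 0.163 (SE, n = 3 per stage; limma, adjusted p = 1.4e-22). The 3 IP arrays lay far above the 3 T arrays, and in MAN the mean was 5.02 ± 0.144 (SD, n = 3), close to the 4.76 to 4.96 of PM to TT. TaAffx.12525.2.A1_at went from a mean of 5.57 to 13.23 and measured 5.59 in MAN. Ta.24738.3.A1_at went from 5.16 to 12.67 and measured 5.21 in MAN. The next 3 by size, TaAffx.92366.1.S1_at, TaAffx.93263.1.A1_at and Ta.8871.2.S1_at, rose by 7.04, 6.74 and 6.55, and in MAN they measured 6.48, 6.12 and 5.23.

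Other probe sets went from below 5 to among the brightest on the array. Ta.3079.1.S1_at measured 3.12, 2.99 and 3.17 on the T arrays and 12.71, 13.51 and 13.71 on the IP arrays. This rise of at least 10.22 ± 0.166 (SE; limma, adjusted p = 3.5e-24) is a lower bound because the T level was below 5, and the MAN mean was 3.33. Ta.3079.1.S1_x_at and Ta.3079.2.S1_x_at, probe sets of the same transcript cluster, rose by at least 10.01 and 9.65. They share their target and are not independent. TaAffx.114330.1.S1_at reached 13.58, Ta.3409.1.S1_at 13.54 and TaAffx.106036.1.S1_at 12.03 in IP, from means of 4.91, 4.59 and 4.32 in T. In MAN these 3 were at 5.15, 4.56 and 3.09, so that each of the 12 rises named here was back within 1 log2 unit of its T mean or below it by MAN.

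**Figure D3:**
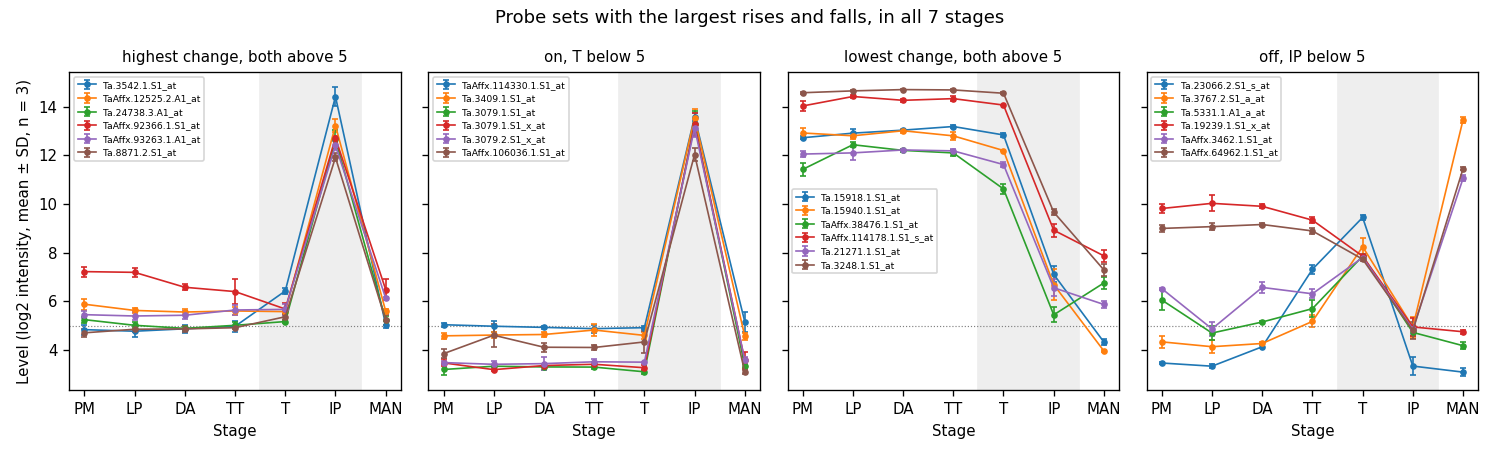
Mean level (log2 intensity ± SD, n = 3 arrays) over the 7 stages of the 6 probe sets that rose most and the 6 that fell most with both means above 5, and of 6 that crossed 5 in each direction, with T and IP shaded. The rises form a peak in IP and are near their starting level in MAN, whereas the falls in the third panel remain low in MAN and 3 of the 6 in the fourth panel are higher in MAN than in T.

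Across all 181 rises of at least 8-fold the same shape held for the median, but not for each member. Their median level was 5.25 to 5.41 from PM to TT, 5.92 in T, 10.60 in IP and 6.26 in MAN, and the upper quartile in MAN was 8.51. A comparison that uses neither T nor IP arrays, MAN against the average of the 4 stages from PM to TT, called 97 of the 181 higher and 35 lower in MAN. For the 1221 rises of at least 2-fold it called 537 (44.0%) higher and 429 (35.1%) lower, beside 41.4% and 27.9% of all probe sets. At the deposited scaling the risers' share of higher levels in MAN was thus close to the background. It was 39.5% beside 31.3% with arrays centred on the median, 45.8% beside 34.4% with quantile normalization, and 18.7% beside 5.10% when arrays were scaled to the hybridisation controls, which averaged 11.08 to 11.30 on the MAN arrays. They made up 2.12% of all probe sets called higher in MAN.

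The largest falls were from bright levels. Ta.15918.1.S1_at measured 12.80, 12.81 and 12.91 on the T arrays and 6.77, 7.11 and 7.43 on the IP arrays, a change of -5.74 ± 0.126 (SE; limma, adjusted p = 7e-22). It had stayed between 12.72 and 13.19 from PM to TT, and in MAN it was at 4.32. Ta.15940.1.S1_at went from 12.20 to 6.68, TaAffx.38476.1.S1_at from 10.62 to 5.44 and TaAffx.114178.1.S1_s_at from 14.07 to 8.92. Ta.21271.1.S1_at and Ta.3248.1.S1_at changed by -5.07 and -4.89. None of these 6 has a readable gene name, and 5 of them were lower still in MAN, the exception being TaAffx.38476.1.S1_at with 6.75.

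Probe sets that crossed 5 downward had less uniform histories. Ta.23066.2.S1_s_at was a transcript of TT and T: it measured 3.46, 3.33 and 4.12 in PM, LP and DA, 7.31 in TT and 9.45 in T. On the IP arrays it read 3.72, 3.26 and 3.01, a change of at least -6.12 ± 0.137 (SE; limma, adjusted p = 9.7e-22). Ta.3767.2.S1_a_at dipped between 2 higher stages, with 8.24 in T, 4.93 in IP and 13.46 in MAN. TaAffx.3462.1.S1_at and TaAffx.64962.1.S1_at also dipped, from 7.80 and 7.73 in T to 4.85 and 4.79 in IP, and measured 11.05 and 11.45 in MAN. Ta.5331.1.A1_a_at and Ta.19239.1.S1_x_at were at least 8.80-fold and 7.52-fold lower in IP and measured 4.17 and 4.74 in MAN.

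Counted without a test, 253 probe sets were below 5 on all T arrays and above 5 on all IP arrays, and 249 did the reverse. Of the 253 that appeared, 204 had a mean below 5 at all 4 stages before T, 104 reached a mean of at least 6 in IP and 21 a mean of at least 10. In MAN 109 of the 253 (43.1%) were above 5. Of the 249 that went below 5, 151 (60.6%) were above 5 in MAN. The share of all probe sets above 5 in MAN was not counted, so these 2 shares have no background and nothing is read from them. The limma fit called 230 of the 253 and 146 of the 249, so that many of the latter crossed 5 without a called change. These counts depend on single arrays, since 1 reading on the other side of 5 removes a probe set. Without IP replicate 1 they were 315 and 360, and without IP replicate 2 they were 348 and 460.

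The 849 falls of at least 2-fold differed from the rises in their course before T and after IP. Their median level was 8.82 in PM, 9.27 in T, 7.70 in IP and 6.88 in MAN. In MAN 624 (73.5%) were lower than in PM, LP, DA and TT and 155 (18.3%) were higher, beside 27.9% and 41.4% of all probe sets. How far these shares depend on the scaling of the arrays was not examined for the falls. TT against PM, again without T or IP arrays, called 311 of them (36.6%) higher and 99 (11.7%) lower in TT, beside 3.50% and 4.44% of all probe sets. Among the 1221 rises it called 142 (11.6%) higher and 94 (7.70%) lower. These shares were not compared at matched levels. The rises had a median of 6.64 in PM, below that of the falls. All probe sets include 11221 with a mean below 4 and 13194 with one of 4 to 5 from PM to TT. The part of level in the contrast was not tested. The 849 falls made up 14.5% of all 2140 probe sets that were higher in TT than in PM. Without IP replicate 1 the shares were 38.1% of 743 falls and 13.3% of 1215 rises.

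The step from T to IP can be set beside those on either side of it, with which it shares arrays. From TT to T, 3807 probe sets (6.22%) were called, 531 (0.868%) at least 2-fold higher and 108 (0.177%) at least 2-fold lower. From IP to MAN, 39313 (64.3%) were called, 4876 (7.97%) at least 2-fold higher and 8859 (14.5%) at least 2-fold lower. For 4454 probe sets (7.28%) the change from T to IP differed from the change from TT to T in a direct test of the difference in limma. The rises of at least 2-fold came from 1022 transcript clusters and the falls from 697, and of the 1717 clusters with either only 2 held both.

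A readable gene name or synonym was given to 200 probe sets of 102 genes. Of these probe sets 27 were higher and 34 lower in IP, and 8 and 4 of them changed at least 2-fold, beside 8.01% and 9.28% of all probe sets called and 2.0% and 1.39% called and changed at least 2-fold. The named genes were not among the largest rises: the highest, hsp16.9A, ranked 255 among the 4898 called rises. The lowest, CAT1, ranked 39 among the 5675 called falls. For 16 of these 61 called probe sets, the change from T to IP differed from that from TT to T, and in 7 of the 16 the 2 changes had opposite signs.

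**Figure D4:**
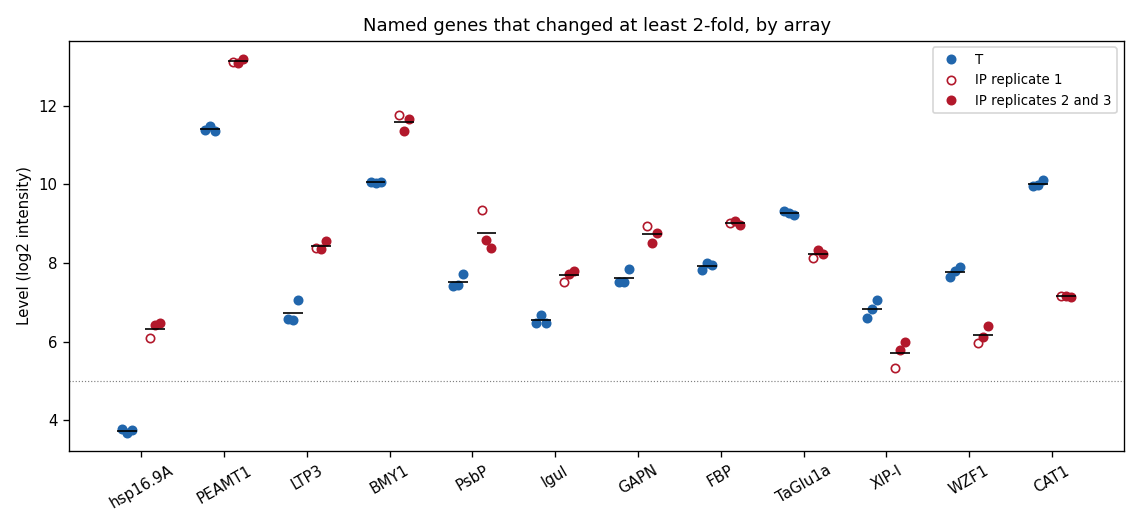
Level (log2 intensity) on each of the 3 T arrays (blue) and 3 IP arrays (red, with replicate 1 open) of 12 named genes that were called and changed at least 2-fold, ordered by gene, with the stage mean as a bar and the level of 5 dotted. The arrays of the stages do not overlap for any of the 12, from hsp16.9A (6.02-fold higher) to CAT1 (7.27-fold lower).

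The highest change of a named gene was that of hsp16.9A, a small heat shock protein that keeps unfolded proteins from aggregating. It measured 3.79, 3.68 and 3.75 on the T arrays and 6.09, 6.43 and 6.47 on the IP arrays. The rise was at least 2.59 ± 0.124 (SE; limma, adjusted p = 9.7e-15), and 2.71 without IP replicate 1. It was above 5 in IP alone among the 7 stages, with means of 3.57 to 3.92 from PM to TT and 3.48 in MAN. The change differed from that between TT and T by 2.77 ± 0.215 (SE; adjusted p = 3.9e-10).

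PEAMT1, the phosphoethanolamine methyltransferase that leads to phosphocholine for membrane lipids, measured 11.39, 11.49 and 11.36 in T and 13.11, 13.08 and 13.18 in IP. It rose 3.27-fold (1.71 ± 0.121, SE; limma, adjusted p = 2.7e-11), with 1.72 without IP replicate 1, and the MAN mean was 11.07, near that of T. LTP3, a lipid transfer protein of the kind that carries lipids outside the cell, rose as much, by 1.71 ± 0.141 (adjusted p = 5.5e-10), from 6.56, 6.55 and 7.05 to 8.37, 8.36 and 8.57, with 1.74 without IP replicate 1. It differed from PEAMT1 in that it had risen by 0.87 from TT to T (adjusted p = 0.00014) and stood higher again in MAN, at 10.45. A second LTP3 probe set rose by at least 0.90, from 4.49, and reached 7.92 in MAN. The lactoylglutathione lyase lgul, which detoxifies methylglyoxal, rose by 1.14 ± 0.127 (adjusted p = 1.3e-07), and GAPN, a cytosolic glyceraldehyde-3-phosphate dehydrogenase of sugar breakdown, by 1.11 ± 0.134 (adjusted p = 5.3e-07). These rises were 1.22 and 1.015 without IP replicate 1. A second lgul probe set rose by 0.79 (adjusted p = 0.00022). In MAN the first lgul probe set was at 4.85 and GAPN at 7.56, each below its IP mean of 7.68 and 8.74.

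In the list of starch and sugar genes, 2 of 11 probe sets were higher, 1 was lower and 8 were not called, with a median of -0.08 and the same counts without IP replicate 1. Over all probe sets 8.01% were higher and 9.28% lower, so that the single fall was near the background. BMY1, a beta-amylase that releases maltose from starch, measured 10.06, 10.03 and 10.07 in T and 11.75, 11.35 and 11.67 in IP. It rose 2.90-fold (1.54 ± 0.121, SE; limma, adjusted p = 2.4e-10) after a rise of 0.96 from TT to T, by 1.46 without IP replicate 1, and was at 7.29 in MAN. A probe set of AGA.1, ADP-glucose pyrophosphorylase, which makes the sugar donor of starch, rose by 0.55 ± 0.13 (adjusted p = 0.0032) to a mean of 9.36, and by 0.465 without IP replicate 1. Another AGA.1 probe set lay below 5 in both stages, and AGP-S, the small subunit of that enzyme, changed by -0.10 (adjusted p = 0.68). GBSS, which makes amylose in starch granules, was below 5 in T and IP (4.84 and 4.59) and at 7.91 in MAN. TaGlu1a, a beta-glucosidase, went the other way: it measured 9.32, 9.28 and 9.22 in T and 8.12, 8.33 and 8.23 in IP, a change of -1.04 ± 0.174 (adjusted p = 6.5e-05). Without IP replicate 1 the change was -0.99 (adjusted p = 5e-04), short of 2-fold.

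The photosynthesis list held 36 probe sets, 28 of them for rbcl, which the chloroplast encodes. Over the whole list 6 rose and 1 fell, with a median of 0.02. Without IP replicate 1, 8 rose and 1 fell, with a median of 0.04. The list as chosen did not separate rbcl. Of the 8 probe sets for the 5 nuclear genes, 6 rose and none fell, beside 8.01% and 9.28% over all probe sets. Their median was 0.68 (0.79 without IP replicate 1, again with 6 rises). PsbP and PsbO, subunits of the complex that oxidises water in photosystem II, and petC, the Rieske protein of the cytochrome complex, belong to the light reactions. One PsbP probe set measured 7.41, 7.45 and 7.72 in T and 9.34, 8.57 and 8.38 in IP, a rise of 1.24 ± 0.194 (SE; limma, adjusted p = 2.7e-05) that was 0.95 without IP replicate 1, where the highest reading lay. The brighter PsbP probe set rose by 0.62 ± 0.163 (adjusted p = 0.0076), PsbO by 0.89 ± 0.218 (adjusted p = 0.0044) and petC by 0.48 ± 0.165 (adjusted p = 0.048). The petC call was lost without IP replicate 2, without IP replicate 3 and without any 1 of the T arrays (adjusted p = 0.056 to 0.25), and the brighter PsbP probe set reached an adjusted p of 0.05 without T replicate 1.

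The other members of the photosynthesis list act in carbon fixation. FBP, chloroplast fructose-1,6-bisphosphatase, measured 7.82, 8.01 and 7.95 in T and 9.01, 9.06 and 8.96 in IP, and rose by 1.08 ± 0.139 (SE; limma, adjusted p = 1.3e-06), also by 1.08 without IP replicate 1. Its other probe set, at 7.82 in T and 8.98 in MAN, was not called (0.19, adjusted p = 0.68; -0.08 without IP replicate 1). PRK, phosphoribulokinase, rose by 0.74 ± 0.136 (adjusted p = 0.00023), from a mean of 10.33 to 11.06, with 0.88 without IP replicate 1, and was at 4.92 in MAN. The 6 probe sets that rose had been brighter in T than in PM, and in MAN they lay between 4.92 and 7.92. The 28 probe sets of rbcl, the large subunit of rubisco, gave no rise and 1 fall, beside 8.01% and 9.28% of all probe sets. Without IP replicate 1 they gave 2 rises and 1 fall, and 16 of them lay below 5 in both stages.

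The proteins of the anther's tapetum known from wheat as raftins, which travel to the surface of the microspores, had high levels in both stages. Means of the 4 raftin probe sets were 11.63 to 13.65 in T and 12.13 to 13.93 in IP, and 7.78 to 8.89 in MAN. Of these, 3 were called higher, beside 8.01% of all probe sets. The median over the list was 0.55 (0.69 without IP replicate 1, with 3 calls). A probe set of raftin1b measured 12.41, 12.79 and 12.95 in T and 13.49, 13.41 and 13.68 in IP, a rise of 0.81 ± 0.22 (SE; limma, adjusted p = 0.01). A second raftin1b probe set rose by 0.60 ± 0.155 (adjusted p = 0.0065) and a raftin1a probe set by 0.50 ± 0.158 (adjusted p = 0.027), the latter with overlapping arrays. These calls rest on T replicate 1, the lowest of the T arrays for all 3: without it the adjusted p was 0.082, 0.064 and 0.11 and none was called. The raftin1a call was also lost without IP replicate 2, IP replicate 3 or T replicate 2. The other raftin1a probe set changed by 0.28 (adjusted p = 0.31).

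In the list of redox and detoxification genes, 4 of 12 probe sets were higher and 1 was lower, with a median of 0.22. Over all probe sets 8.01% were higher and 9.28% lower, so that a single fall was near the background. Of the 5 calls in the list, 2 held whichever array was left out, 1 higher and 1 lower. The fall, in the catalase CAT1, was the largest of any named gene. CAT1, which breaks down hydrogen peroxide, measured 9.95, 9.97 and 10.11 in T and 7.16, 7.15 and 7.14 in IP. It fell 7.27-fold (-2.86 ± 0.132, SE; limma, adjusted p = 3.9e-15), and the IP arrays agreed to within 0.02, replicate 1 included, so that without it the change was -2.87. Before that it had gone up from 8.53 in PM to 10.01 in T, and in MAN it was at 5.25. Its change differed from that between TT and T by -3.05 ± 0.228 (adjusted p = 1.8e-10).

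The rises in that list were smaller. Trx-M, a thioredoxin of plastids, changed by 0.68 ± 0.195 (SE; limma, adjusted p = 0.014), and the peroxidase Prx1 by 0.61 ± 0.125 (adjusted p = 0.00076) and 0.47 ± 0.15 (adjusted p = 0.028) in 2 probe sets. The other 2 Prx1 probe sets were not called (0.29 and 0.16, adjusted p = 0.33 and 0.37). In MAN Trx-M was at 4.47 and the called Prx1 probe sets were at 4.68 and 4.33. Without IP replicate 1 the change of Trx-M was 0.81 and those of the called Prx1 probe sets were 0.66 and 0.55. GSTZ1, a glutathione transferase, rose by 0.59 ± 0.158 (adjusted p = 0.0091) in 1 of its 3 probe sets. The call for Trx-M was lost without IP replicate 3 and without T replicate 1 (adjusted p = 0.089 and 0.09), that for GSTZ1 without IP replicate 3 (0.065), and that for the dimmer Prx1 probe set without IP replicate 3 or any 1 of the T arrays (0.053 to 0.13).

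WZF1, a zinc finger protein, dipped in IP. It measured 7.64, 7.80 and 7.89 in T and 5.96, 6.12 and 6.41 in IP, a change of -1.62 ± 0.153 (SE; limma, adjusted p = 7.6e-09), and -1.51 without IP replicate 1. It reached 10.11 ± 0.194 (SD, n = 3) in MAN, above every earlier stage. The proton pump of the plasma membrane, ha1, rose by 0.85 ± 0.117 and 0.90 ± 0.113 (adjusted p = 4.3e-06 and 1e-06) in 2 of its 3 probe sets, which were higher again in MAN, at 11.81 and 12.25. These changes were 0.76 and 0.88 without IP replicate 1. Its brightest probe set, at 12.35 in T, changed by 0.19 (adjusted p = 0.43), and by 0.39 (adjusted p = 0.028) without IP replicate 1.

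Histones wrap DNA and are made in bulk when it is copied. Of 18 probe sets for histones H2A and H2B, 6 were not called, and the median over the list was -0.605. None rose and 12 fell, beside 8.01% and 9.28% of all probe sets. All 12 came from 3 genes whose probe sets may read each other's transcripts. The wcH2B-8 probe set Ta.7378.1.S1_x_at measured 11.47, 11.49 and 11.61 in T and 10.70, 10.89 and 10.87 in IP, a change of -0.70 ± 0.11 (SE; limma, adjusted p = 2.8e-05). The wcH2A-9 probe set Ta.27657.1.S1_at measured 12.41, 12.47 and 12.32 in T and 11.41, 11.78 and 11.85 in IP, a change of -0.72 ± 0.115 (adjusted p = 3.9e-05). For both, the IP arrays lay below the T arrays, and IP replicate 1 was the lowest.

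The T means of the histone probe sets ran from 6.38 to 12.90, so that most lay in the bright range where IP replicate 1 was weak. Falls were more common among bright probe sets. Of the 4440 between 10 and 12 in PM, LP, DA and TT, 1103 were lower with all arrays and 759 without IP replicate 1. Between 12 and 13 these were 334 and 216 of 974. The histones were not compared at matched levels. Without IP replicate 1, 8 of the 18 histone probe sets were called, all lower, and the median was -0.50. Of the 12 calls 7 held whichever of the 6 arrays was left out. The change of wcH2A-2 (-0.895 ± 0.242, SE; limma, adjusted p = 0.0095) was the largest of the list but was not called without IP replicate 1 (-0.68, adjusted p = 0.079). The wcH2B-6 probe sets, at 12.66 and 12.73 in T, changed by -0.18 and 0.01 (adjusted p = 0.4 and 0.99). In MAN the falls went much further, and the wcH2B-8 and wcH2A-9 probe sets named above were at 7.41 and 7.32.

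**Figure D5:**
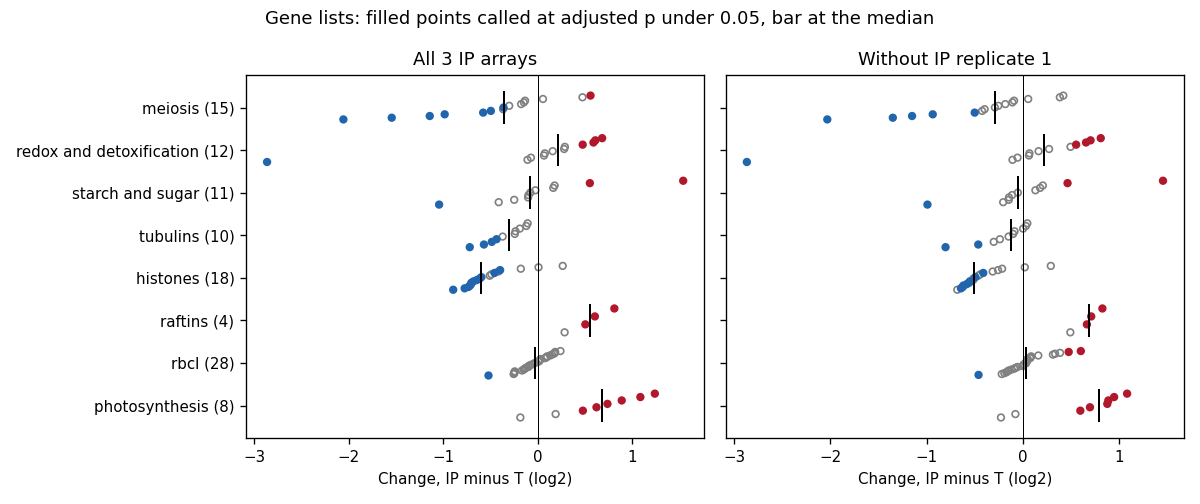
Change from T to IP (log2, horizontal axis) of each probe set in 8 gene lists, with all arrays on the left and without IP replicate 1 on the right. Filled points were called (red higher, blue lower), open grey points were not and bars mark the medians, which were -0.605 and -0.503 for histones, 0.678 and 0.788 for photosynthesis genes other than rbcl, and -0.308 and -0.125 for tubulins.

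Tubulins, the subunits of microtubules, gave 4 falls and no rise among 10 probe sets with all arrays (median -0.31). Over all probe sets 9.28% were lower with all arrays and 6.21% without IP replicate 1. Most tubulin probe sets were bright, and falls were more common among bright probe sets. Of the 974 probe sets between 12 and 13 in PM, LP, DA and TT, 334 were lower with all arrays and 216 without IP replicate 1. Between 13 and 14 these were 213 and 117 of 413. The tubulins were not compared at matched levels. Without IP replicate 1, 2 tubulin probe sets fell (median -0.125). The 2 that held had the lowest T means of the list, 7.90 and 12.02. A probe set of the alpha tubulin TUBA measured 7.86, 7.94 and 7.90 in T and 7.35, 7.24 and 6.96 in IP. Its change was -0.72 ± 0.156 (SE, limma, adjusted p = 0.0014). The other TUBA probe set, far brighter at 13.64 in T, was not called (-0.11, adjusted p = 0.62). Without IP replicate 1 its change was 0.003. Beta tubulin Tubb4 fell by 0.57 ± 0.108 (adjusted p = 0.0003), with -0.46 without IP replicate 1. The calls for Tubb5 and tubb3, with T means of 13.12 and 13.34, were lost without that array (adjusted p = 0.21 and 0.055). That for Tubb5 was lost also without T replicate 1 or 2.

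The 15 transcripts that the study followed by quantitative PCR were selected by its authors on these same RNA pools for their meiotic profiles, so their direction is not independent evidence. With all arrays 7 were lower and 1 was higher, beside 9.28% and 8.01% of all probe sets. The other 7 were not called, and the median was -0.36. Without IP replicate 1, 5 were lower and none was higher (median -0.29). Several were still bright in IP. ASY1, a protein of the chromosome axis needed for synapsis, measured 9.90, 9.88 and 9.74 in T and 8.71, 8.73 and 8.65 in IP, a change of -1.14 ± 0.124 (SE; limma, adjusted p = 8.5e-08). RAD51B, which acts in the repair of DNA breaks by recombination, fell by 1.54 ± 0.12 (adjusted p = 1.8e-10), from a mean of 10.46 to 8.91, with -1.35 without IP replicate 1. RAD54, a motor protein that moves along DNA during recombination, fell by 0.98 ± 0.127 (adjusted p = 1.5e-06), and DMC1, the recombinase of meiosis, fell by 0.58 ± 0.114 (adjusted p = 0.00052) from 10.21 to 9.63. The changes of ASY1, RAD54 and DMC1 were -1.15, -0.94 and -0.50 without IP replicate 1.

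The largest fall of these transcripts was in WMC10, which has no annotated role here. It measured 11.92, 11.84 and 11.39 in T and 9.62, 9.65 and 9.72 in IP, a change of -2.06 ± 0.141 (SE; limma, adjusted p = 1.4e-11), and -2.03 without IP replicate 1. From TT to T it had risen by 2.82, and it was highest in MAN, at 13.46, so IP lay between 2 higher stages. The direct test of the 2 changes gave -4.88 ± 0.244 (adjusted p = 7e-14). PHS1 (-0.36), WMC4 (-0.50) and WMC6 (0.56) passed with all arrays and not without IP replicate 1 (adjusted p = 0.21, 0.074 and 0.12). PHS1 was lost without any 1 of the other arrays except IP replicate 3, WMC4 also without T replicate 1 or 3, and WMC6 without T replicate 2. MSH4, MSH6, RAD51C, RPA, WM5, WMC3 and WMC5 were not called, with changes of -0.37 to 0.47.

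The stage labels were set against markers of the cell types an anther holds. Raftins of the tapetum, photosynthesis genes of the green wall layers and profilin, an actin-binding protein abundant in pollen, were all present. The brighter probe set of the profilin PRO1 was at 13.91 in T and 13.54 in IP. In PM it was already at 13.93, PsbO at 10.82 and the raftins at 10.53 to 12.32. Presence of these markers therefore cannot test the stage labels. The fall of that PRO1 probe set by 0.38 (limma, adjusted p = 0.036) was not called without IP replicate 1 (-0.18) or without T replicate 1 or 2. Polygalacturonase, pectin-modifying enzymes, expansin, RbcS, Cab and PCNA matched no readable name here. From T to IP 3 of 4 raftin probe sets were called higher, but none of these calls held whichever array was left out. For photosynthesis 6 of 8 probe sets other than rbcl were called higher, and none of the 28 for rbcl. Of these 6 calls 4 held whichever array was left out. For histones 12 of 18 were called lower, and 7 of these calls held whichever array was left out. Over all probe sets 8.01% were higher and 9.28% lower, shares that are not matched for level. The part of changed proportions of cell types in any result was not tested.

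Storage proteins of the grain serve as markers of a tissue that an anther does not hold. Of 17 probe sets for gliadins, glutenins and avenin-like proteins, 10 lay below 5 in both stages, and 1 avenin-like probe set stood out at 10.41 in T and 10.80 in IP. None rose and 1, for Glu-D3, fell by 0.37 at levels below 5, and without IP replicate 1 none fell and 1 rose. Among other proteins of the grain, the xylanase inhibitor XIP-I fell by 1.12 ± 0.144 (SE; limma, adjusted p = 1.4e-06), from 6.60, 6.83 and 7.05 to 5.34, 5.78 and 5.99, with -0.94 without IP replicate 1. Its other probe set fell by 0.94 ± 0.126 (adjusted p = 3e-06). Both had risen from TT to T, by 0.52 and 0.42, and the difference between the steps was called (adjusted p = 3.6e-05 and 7.8e-05). The amylase inhibitor WMAI-1 fell by 0.37 (adjusted p = 0.02), a call that was lost without IP replicate 1, T replicate 2 or T replicate 3.

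Among proteins of dehydration, 1 of 10 probe sets was higher and 2 were lower with all arrays, and 2 were higher and none lower without IP replicate 1, beside 8.01% higher and 9.28% lower over all probe sets with all arrays. EMH2, a late embryogenesis abundant protein, rose by 0.64 ± 0.147 (SE; limma, adjusted p = 0.0024) in 1 of its 3 probe sets, whose arrays overlapped between stages. The 2 falls, both in the dehydrin Rab15 (-0.39 and -0.59), were lost without IP replicate 1 (adjusted p = 0.28 and 0.16). Of 8 probe sets for ribosomal proteins and translation factors, 1 each of RPS29 and TEF1 fell (-0.41 and -0.37) and eIF-2-beta rose (0.37). The other RPS29 and TEF1 probe sets were not called (-0.01 and -0.26, limma, adjusted p = 0.98 and 0.24). Each of the 3 calls was lost without at least 1 array. The 2 falls were lost without IP replicate 1 (adjusted p = 0.09 and 0.3), when 2 probe sets of the list were higher. The 4 probe sets for gibberellin 20-oxidase, an enzyme of gibberellin synthesis, were not called and changed by -0.22 to 0.34. The 2 transcripts chosen by the study as steady references changed by -0.29 and -0.28 with all arrays and by -0.06 and -0.05 without IP replicate 1, and neither was called.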

How the data were processed

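The deposited values are intensities on a linear scale, 1 per probe set and array, which the authors computed with RMA (which removes background, makes arrays comparable and merges the probes of a set; version not given in the sources used here). Here log2 was taken. Of 61290 probe sets, 111 controls were set aside. The table does not mark the probe sets that the authors discarded, so these were kept. All 21 arrays were fitted as 7 stage means in limma 3.58.1 (R 4.3.3) and moderated by empirical Bayes (14 residual degrees of freedom, 10.64 prior). The contrast IP minus T was adjusted by Benjamini-Hochberg over 61179 probe sets. An adjusted p under 0.05 was a call, a mean above 5 counted as expressed, and changes that cross it are lower bounds. The method was tested on simulated data with independent noise for each probe set and array. These data held no weak array like IP replicate 1, so the test does not bear on the effect of that array. Figures were drawn with Python 3.11.15 and matplotlib 3.10.9. The number of arrays limits the precision.

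Symbols came from the platform annotation (1273 probe sets, 200 with a readable name or synonym). Named were called members of the gene lists and up to 12 named probe sets with the highest and 12 with the lowest change of at least 2-fold; the 6 highest and 6 lowest changes with both means above 5, and 6 crossing 5 in each direction, with arrays that did not overlap and the same call without IP replicate 1; and the 15 PCR transcripts with 2 steady ones. The comparison, lists and tests were chosen with earlier results of these data known. Members not called, a second lgul probe set and the avenin-like probe set were named after their values were seen.

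The alternatives were the methods' t-test (Student's test with equal variances) with and without adjustment, limma on the 6 arrays, a replicate block, limma-trend, array weights, median centring, scaling to hybridization controls, quantile normalization, a minimum mean of 5, probe sets without the endings that mark shared probes, other thresholds, and each array left out in turn.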

Additional observations from a re-analysis of the deposited data

Results flagged for a closer look

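The control probe sets of the wheat array were left out of the tests, and 3 of the 25 that read wheat transcripts had every IP array more than 1 log2 unit above every T array. All 3 read sucrose synthase, the enzyme that splits sucrose into UDP-glucose and fructose. The probe set for the middle of the transcript (AFFX-Ta_Sucsyn_M_at) measured 4.91, 5.10 and 4.94 in T and 12.15, 11.32 and 11.39 in IP, a difference of 6.64 that is a lower bound since the T level was about 5. The probe set for the 3′ end (AFFX-Ta_Sucsyn_3_at) measured 9.95, 10.01 and 9.85 in T and 13.71, 14.41 and 14.47 in IP, a difference of 4.26. That for the 5′ end (AFFX-Ta_Sucsyn_5_at) measured 3.87, 3.85 and 4.03 in T and 8.31, 5.70 and 6.02 in IP, a difference of 2.76. On IP replicate 1 the middle and 5′ readings were the highest of the stage and the 3′ reading was the lowest. These differences were not tested.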

How the results depend on the processing

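The 10573 calls numbered 2944 with the methods' t-test after adjustment (12631 before it) and 7046 at an adjusted p under 0.01. Scaled to the hybridization controls, on which IP replicate 1 was low, the median change moved from -0.04 to 0.22 and 2385 probe sets were called, 1923 higher and 462 lower (80.6% higher, against 46.3%), each at least 2-fold. The histone and tubulin lists then had 0 calls, the raftins 1 and photosynthesis 3. At 4-fold 533 of the 2070 changes remained. Probe sets crossing the expressed level numbered 502, 261 at a level of 4, 131 with the controls' scaling (131 on, 0 off), 478 with quantile normalization (301 on, 177 off, against 253 and 249) and 808 without IP replicate 2. Leaving out 1 array gave 7948 to 11021 calls, 1958 to 2368 of at least 2-fold, 520 to 619 risers higher in MAN and 603 to 808 crossings. Small uncalled changes took the other sign: WMC5 (0.05) gave -0.144 with array weights and -0.091 to 0.241 when single arrays were left out. MSH4 (0.131), MSH6 (0.117) and WM5 (0.088) turned positive with the controls' scaling, and WM5 gave -0.321 to 0.056 when single arrays were left out. The cause was not tested. No called named probe set changed sign. Of 86, 60 kept the call whichever array was left out, and 41 with the adjusted t-test. The 86 include the probe sets chosen for large changes and for the same call without IP replicate 1. All 6 of each such kind kept the call, which their selection favoured. Replicate numbers did not pair T and IP arrays (correlations of their deviations -0.208, 0.07 and -0.058), and the replicate block gave 10671 calls, 2071 of at least 2-fold, and changed no named call.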

Other observations

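IP replicate 1 stood apart in the control probe set for 18S ribosomal RNA too, but not in that for the middle of actin. The first measured 8.55 on IP replicate 1, against 13.19 and 13.78 on the other IP arrays and 12.61 to 13.76 on the T arrays. The actin probe set measured 6.78, 6.86 and 6.80 in IP and 6.76, 6.80 and 6.95 in T, with overlapping ranges.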
